A study of Rattus norvegicus with 6 samples.

Results

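The genes described here encode 10 matricellular and adhesive glycoproteins of the extracellular matrix: tenascin C (Tnc), the thrombospondins Thbs1, Thbs2, Thbs3 and Thbs4, periostin (Postn), the SPARC family proteins Sparc, Sparcl1 and Smoc2, and fibronectin (Fn1). They were taken by symbol from the table of 30957 genes, each symbol matched 1 gene, and all 10 were among the 15195 genes that passed the filter on low counts and were tested. Expression was followed in the left sciatic nerve of Sprague-Dawley rats of about 1 month of age in 3 groups. The control group is labelled as normal control, and by the methods of the study these rats had the same operation without the clamp. The D4 and D7 groups were sampled 4 and 7 days after the middle of the nerve had been crushed with hemostatic forceps. Every group held 2 rats, every rat gave 1 library of rRNA-depleted RNA, and the letters a and b only name the libraries.

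Matricellular proteins are secreted into the matrix without being its main scaffold, and they alter how cells attach, spread and respond to growth factors. Fibronectin is a true adhesive scaffold protein, bound by integrins at the cell surface. After a crush, the nerve beyond the lesion loses its axons and myelin, Schwann cells turn into repair cells, macrophages enter, and the regrowing axons extend along a matrix that these cells and fibroblasts remodel. Tenascin C, thrombospondins and fibronectin are known components of that matrix in injured nerve.

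The deposited gene counts summed to between 18727255 and 25350886 fragments per library. Counts are given below as normalised counts per 1000000 fragments (CPM), scaled by the library total and a TMM factor (trimmed mean of M values). The log2 fold change, its standard error (SE) and its adjusted p-value come from 1 fit of edgeR's quasi-likelihood test to the 6 libraries with Benjamini-Hochberg adjustment over all 15195 genes. A call needed both an adjusted p-value below 0.05 and a difference of at least 2-fold, and only a gene so called is said to have risen or fallen. With 2 rats a group, the p-values rest on the spread between these few animals, drawn towards the spread over all genes tested. As a check of the tissue, Prx, which encodes the Schwann cell myelin protein periaxin, stood at 7334 and 5136 CPM in the control libraries. In bulk nerve, fewer cells of a type and less RNA per cell cannot be told apart, and this holds for every level given here.

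The base sequences upstream of the start site are shown for 4 members, the risers Tnc, Thbs1 and Thbs4 and the falling Sparcl1, so that their composition can be set side by side. RefSeq promoters on the GRCr8 assembly matched 7 of the 10 members, and Thbs2, Fn1 and Smoc2 were not matched. Each line gives the 250 bases before the start site, 5′ to 3′ on the gene's own strand. Capitals mark matches on either strand to 3 short motifs: the TATA box (TATAAA), the GC box (GGGCGG) and the TEAD site (CATTCC).
Tnc: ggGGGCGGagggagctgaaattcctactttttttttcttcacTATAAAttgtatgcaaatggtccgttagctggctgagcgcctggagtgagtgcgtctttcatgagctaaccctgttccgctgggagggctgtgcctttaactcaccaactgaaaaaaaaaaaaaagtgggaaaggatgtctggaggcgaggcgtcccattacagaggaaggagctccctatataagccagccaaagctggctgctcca
Thbs1: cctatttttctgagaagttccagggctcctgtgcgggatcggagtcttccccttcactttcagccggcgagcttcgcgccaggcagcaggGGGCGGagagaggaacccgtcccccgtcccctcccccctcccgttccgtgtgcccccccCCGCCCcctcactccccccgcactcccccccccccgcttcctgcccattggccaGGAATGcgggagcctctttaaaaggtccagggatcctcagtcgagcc
Thbs4: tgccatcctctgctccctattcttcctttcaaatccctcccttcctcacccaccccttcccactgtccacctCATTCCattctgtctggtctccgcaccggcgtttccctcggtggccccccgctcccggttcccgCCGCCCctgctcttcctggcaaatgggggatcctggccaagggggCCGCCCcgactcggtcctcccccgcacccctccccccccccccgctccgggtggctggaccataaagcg
Sparcl1: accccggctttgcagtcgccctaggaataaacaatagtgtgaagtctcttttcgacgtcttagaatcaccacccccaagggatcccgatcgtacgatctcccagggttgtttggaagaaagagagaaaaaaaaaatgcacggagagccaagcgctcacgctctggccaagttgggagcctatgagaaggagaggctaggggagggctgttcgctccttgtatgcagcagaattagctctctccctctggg
The Tnc sequence lies at chr5:82476132-82476381 on the minus strand and has 49.6% G and C and 7 CpG dinucleotides. It holds a GC box at bases -248 to -243 from the start and the letters TATAAA at -208 to -203. The letters tatataa nearer the start were not a searched motif and stay in lower case. The Thbs1 sequence, at chr3:125510000-125510249 on the plus strand, was richer, with 67.6% G and C and 16 CpG, and held 2 GC boxes (-160 to -155 and -101 to -96) and a TEAD site (-47 to -42). The Thbs4 sequence, at chr2:25760346-25760595 on the minus strand, also had 67.6% G and C with 15 CpG, 2 GC boxes (-114 to -109 and -69 to -64) and a TEAD site (-178 to -173). The Sparcl1 sequence, at chr14:5937234-5937483 on the plus strand, had 52.4% G and C and 11 CpG and held none of the 3 motifs. The median over all 33469 promoters was 51.2% G and C. Of the 7 matched members, 4 held a GC box, against 30.5% of all promoters, 3 a TEAD site, against 12.1%, and 2 a TATA box, against 12.9%. The AP-1 motif (TGANTCA, found in 6.34% of promoters) and the CArG box (1.5%) were searched as well and matched 0 of the 7 members. These matches are letters in a short window and say nothing of binding.

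At D4 against control, 5 of the 10 genes rose (Tnc, Thbs1, Thbs2, Thbs4 and Fn1), 1 fell (Sparcl1) and 4 were not called. Over all genes tested, 11.2% were called higher and 10.7% lower at D4. The members and the gene lists below were chosen with earlier results of these data known. Counts and medians set beside those of all genes are therefore descriptions only. The median log2 fold change was 1.11 over the 10 members and -0.04 over all genes. At D7 against control, 3 rose (Tnc, Thbs2 and Smoc2), 1 fell (Sparcl1) and 6 were not called, against 9.83% of all genes called higher and 9.02% lower, with a median of 0.86 over the members and 0.01 over all genes. The D4 and D7 comparisons share the same 2 control libraries. Without the TMM factors, the share of called genes that were higher went from 51.2% to 69.3% at D4 and from 52.1% to 70.4% at D7, the median over all genes moved to 0.25 and 0.31, and 7 members were called at each day, 6 higher and 1 lower.

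**Figure D1:**
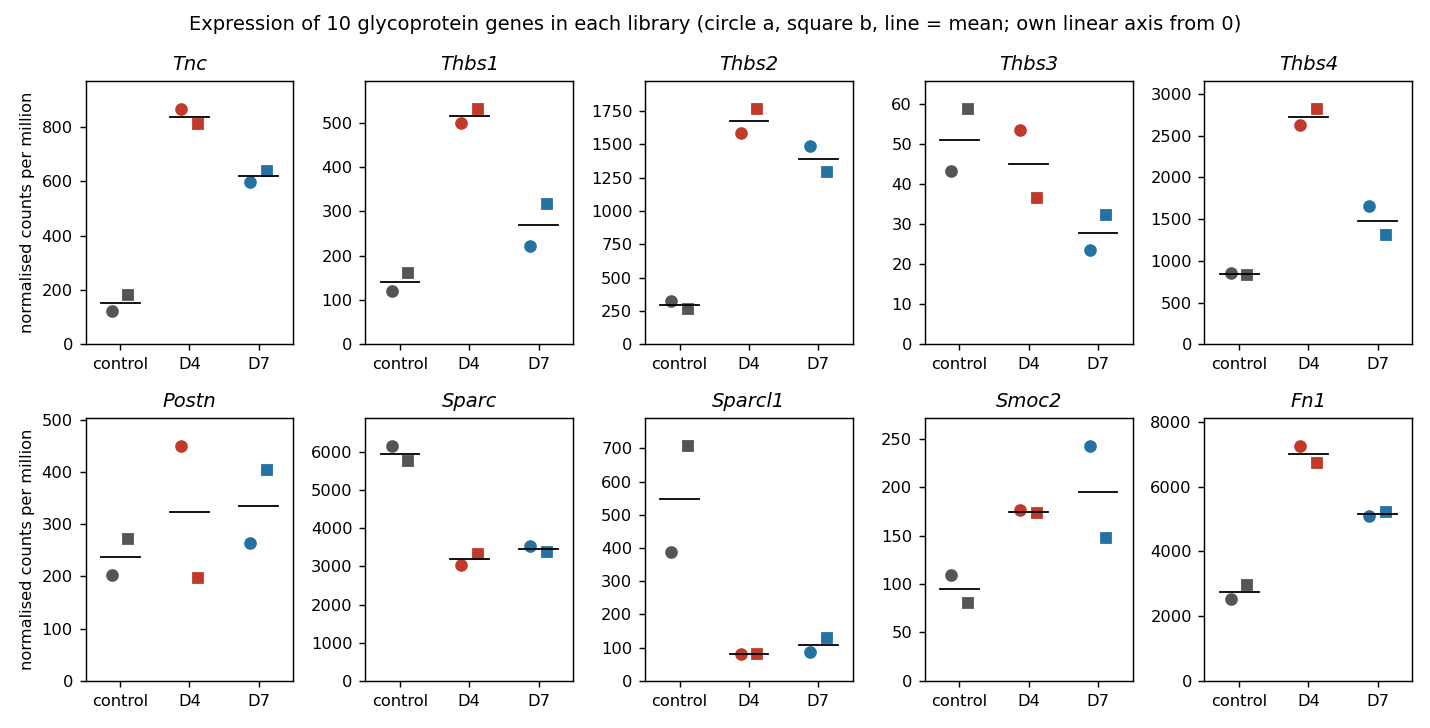
Normalised counts (CPM) of the 10 genes in each library, with a panel and a linear axis from 0 for each gene, circles for library a, squares for library b and a line at the group mean. Tnc, Thbs1, Thbs2, Thbs4, Smoc2 and Fn1 lie above both control libraries at D4 and at D7, and Sparc and Sparcl1 lie below them. The share of all genes that separate in this way was not counted. The D4 libraries of Postn, at 449.6 and 197.8, spread widely.

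Tenascin C, a large hexameric glycoprotein of developing and healing tissue, had 121.1 and 179.7 CPM in the control libraries, 865.7 and 810.7 at D4 and 598.5 and 637.7 at D7. Its gene (ENSRNOG00000058645) spans chr5:79789671-79874671 on the Rnor_6.0 assembly, which the submitters' processing notes name and on which all gene spans below are given. The 3 groups did not overlap, with D4 highest and control lowest. Tnc rose 5.57-fold at D4 (log2 fold change 2.48, SE 0.20, adjusted p = 0.000358). At D7 it was 4.11-fold higher than in control (log2 fold change 2.04, SE 0.19, adjusted p = 0.000941). By its FPKM, the authors' count scaled to gene length and library total, it ranked 4716 and 3113 among all genes in control and between 422 and 636 after injury.

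Of the 4 thrombospondins, Thbs1, Thbs2 and Thbs4 rose at D4 and Thbs3 did not. Thbs1 and Thbs2 are trimeric members that bind CD36 and CD47 and restrain the growth of vessels. Thbs3 and Thbs4 are pentameric members, and Thbs4 is known from tendon, muscle and the nervous system.

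Thbs2 (ENSRNOG00000010529, chr1:56653938-56683731) stood at 321.1 and 264.8 CPM in control, 1589 and 1764 at D4 and 1485 and 1291 at D7. Both injured groups lay far above control, and D7 lay just below D4. Thbs2 had the highest fitted log2 fold changes among the members that rose at each day, 5.72-fold at D4 (log2 fold change 2.52, SE 0.15, adjusted p = 0.000172) and 4.74-fold at D7 (2.24, SE 0.15, adjusted p = 0.000381). Thbs1 (ENSRNOG00000045829, chr3:109862117-109873466) had 121.2 and 161.8 CPM in control, 499.1 and 530.9 at D4 and 222.5 and 317.5 at D7. The D7 libraries fell between control and D4 without overlapping either. Thbs1 rose 3.64-fold at D4 (log2 fold change 1.86, SE 0.21, adjusted p = 0.00122), while at D7 its 1.91-fold difference (0.93, 95% interval 0.42 to 1.44, adjusted p = 0.0171) missed the fold threshold. It was called at D7 without control b (1.15) and without D7 a (1.2).

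Thbs4 (ENSRNOG00000012471, chr2:22343727-22385855) had the highest FPKM of the 4 in each library, and its normalised counts were 853.7 and 834.3 CPM in control, 2634 and 2819 at D4 and 1655 and 1311 at D7. Its groups did not overlap, in the order D4, D7, control. It rose 3.23-fold at D4 (log2 fold change 1.69, SE 0.14, adjusted p = 0.000410), and at D7 it was 1.76-fold above control (0.81, 95% interval 0.47 to 1.15, adjusted p = 0.00665), below the fold threshold. Thbs3 (ENSRNOG00000059903, chr2:188528979-188540736) had the lowest mean FPKM of the 10 genes in each group, and its counts stood at 43.21 and 58.73 CPM in control, 53.61 and 36.5 at D4 and 23.43 and 32.36 at D7. Its D4 libraries overlapped control, and its D7 libraries lay below both other groups. The log2 fold change was -0.18 at D4 (95% interval -0.80 to 0.45, adjusted p = 0.602) and took the opposite sign, 0.11, without the TMM factors, 0.06 without control b and 0.07 without D4 b. At D7 it was -0.87 (95% interval -1.50 to -0.24, adjusted p = 0.0425), short of the fold threshold, which it passed without control a (-1.08) and without D7 b (-1.12).

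**Figure D2:**
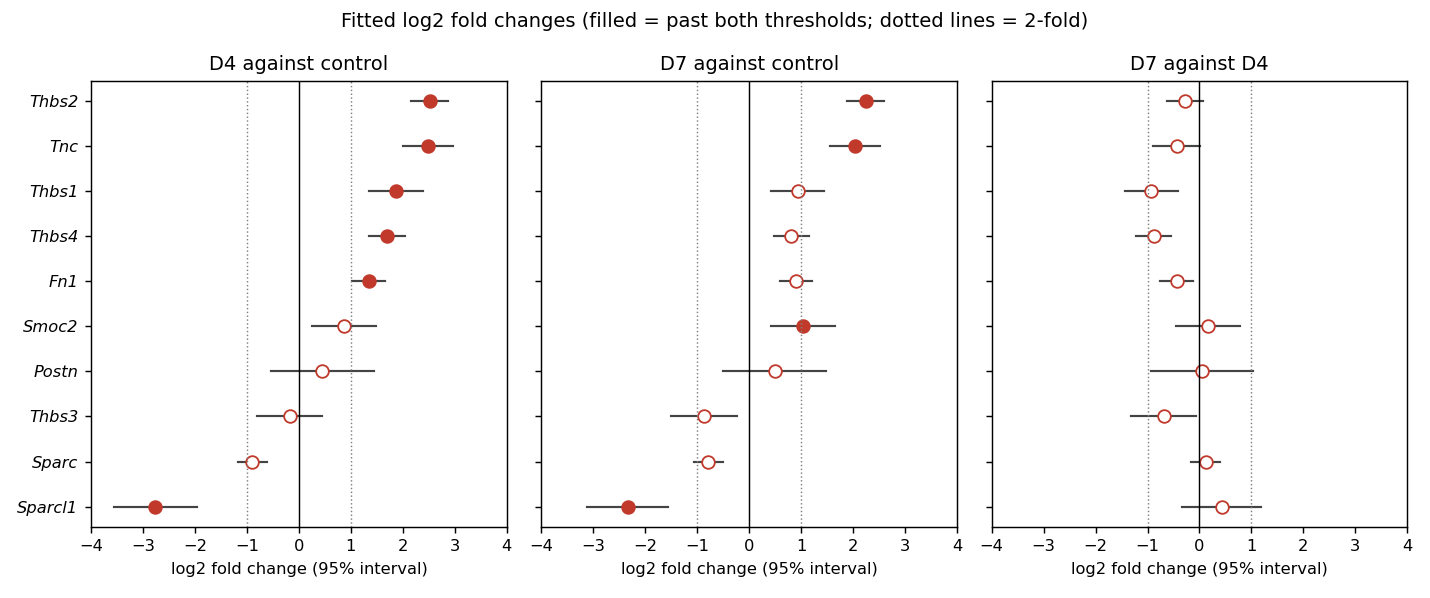
Fitted log2 fold changes of the 10 genes with 95% intervals in the 3 comparisons, in the order of their D4 values. Filled points passed both thresholds and dotted lines mark a 2-fold difference. At D4 the filled points run from Thbs2 (2.52) to Fn1 (1.35) and end with Sparcl1 (-2.77), and no point is filled in the comparison of D7 with D4.

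Fibronectin carries the integrin-binding site on which many cells adhere and migrate. Fn1 (ENSRNOG00000014288, chr9:78900103-78969078) had 2533 and 2973 CPM in control, 7260 and 6734 at D4 and 5092 and 5209 at D7. The libraries fell into 3 separate levels, with D4 highest. Fn1 rose 2.54-fold at D4 (log2 fold change 1.35, SE 0.13, adjusted p = 0.000629). At D7 it stood 1.87-fold above control (0.90, 95% interval 0.59 to 1.22, adjusted p = 0.00344), which missed the fold threshold, and it passed without control b (1.02). In fragments, Fn1 took 0.219% and 0.263% of the control libraries, 0.774% and 0.719% at D4 and 0.542% and 0.562% at D7. These shares carry no TMM factor, unlike the fold changes.

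The SPARC family proteins bind calcium, and the members of the family followed here did not go the same way. Sparc, a collagen-binding protein that helps assemble fibrillar matrix, had 6157 and 5751 CPM in control, 3050 and 3323 at D4 and 3548 and 3367 at D7. Its injured libraries lay below both control libraries and D7 lay slightly above D4. The log2 fold changes of Sparc (ENSRNOG00000012840, chr10:40742400-40764185) were -0.90 at D4 (95% interval -1.18 to -0.62, adjusted p = 0.00172) and -0.78 at D7 (95% interval -1.06 to -0.51, adjusted p = 0.00375), with the fold threshold not reached at either day. Sparc nevertheless stayed among the genes of highest FPKM, at ranks 8 and 9 in control and between 10 and 13 after injury.

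Sparcl1, also called hevin, is an adhesion-modulating relative of Sparc found around vessels and in the brain. It had 386.7 and 707.5 CPM in control, 80.9 and 79.9 at D4 and 86.86 and 128.9 at D7. Every injured library was far below both control libraries, which themselves differed 1.83-fold. Sparcl1 (ENSRNOG00000015093, chr14:6994190-7025308) fell to 0.147 of control at D4 (log2 fold change -2.77, SE 0.33, adjusted p = 0.00136) and to 0.197 of control at D7 (-2.34, SE 0.32, adjusted p = 0.00313). The higher control library, b, also had higher marker sums than a for endothelial cells (1260 against 678 CPM) and for pericytes and smooth muscle (2720 against 895 CPM). Most of these gaps lay in Vwf (908.6 against 342.3) and Acta2 (1722 against 240.6), whereas Cdh5 had 169.3 against 176.8 CPM and Kdr 186.2 against 158.8, and their part in the Sparcl1 values was not tested.

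Smoc2, a secreted modular calcium-binding protein, had 109.4 and 80.85 CPM in control, 176.0 and 173.1 at D4 and 242.5 and 148.0 at D7. The injured libraries were above both control libraries, and D4 and D7 overlapped. For Smoc2 (ENSRNOG00000014166, chr1:56242346-56374120) the D4 log2 fold change was 0.87 (95% interval 0.26 to 1.49, adjusted p = 0.0338), under the fold threshold, which it passed without control a (1.11). At D7 it rose 2.05-fold (1.04, SE 0.25, adjusted p = 0.0226). That call was lost without control b (0.83, adjusted p = 0.0916), without D4 a (1.04, adjusted p = 0.0515), without D4 b (1.04, adjusted p = 0.0518), without D7 a (0.67, adjusted p = 0.0612) and in a fit of control and D7 alone (1.04, adjusted p = 0.0511).

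Periostin, a fasciclin-domain protein of fibroblasts that binds collagen and tenascin C, had the widest spread of the members at D4. Its SE was the largest of the members in each comparison (0.41 at D4 and at D7). Postn (ENSRNOG00000012660, chr2:143656793-143688087) had 202.4 and 271.9 CPM in control, 449.6 and 197.8 at D4 and 264.3 and 404.3 at D7. Libraries D4 a and D7 b were high, the D4 libraries differed 2.27-fold, and all groups overlapped. The log2 fold change was 0.45 at D4 (95% interval -0.54 to 1.44, adjusted p = 0.404) and 0.50 at D7 (95% interval -0.50 to 1.49, adjusted p = 0.371), intervals that reach past a 2-fold difference. Without D4 a the D4 value became -0.26. Summed adipocyte markers were also higher in D4 a than in D4 b (505 against 247 CPM) and in D7 b than in D7 a (601 against 52.0 CPM), but lower in control b than in control a (1210 against 1360 CPM), where Postn was higher in b. Summed skeletal muscle markers, low throughout, were higher in the library with more Postn in each group (21.6 against 1.34 CPM in control, 38.8 against 1.99 at D4 and 4.06 against 0.235 at D7), with Ckm at 0 in control a and D7 a. Summed fibroblast markers were 3170 and 3040 CPM in control a and b, 2650 and 2560 at D4 and 2270 and 2560 at D7. They were thus higher in the library with more Postn at D4 and D7 but not in control. Pi16, of that list, was higher in that library in each group. It had 14.78 and 21.71 CPM in control, 29.63 and 15.44 at D4 and 13.85 and 25.83 at D7. The other fibroblast markers did not do so in every group. The part of any of these lists in the Postn values was not tested.

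D7 was then compared with D4 directly, to show which members differed between the days. None of the 10 was called by edgeR. By its test, 4 had an unadjusted p-value under 0.05 (Thbs1, Thbs3, Thbs4 and Fn1) and 1 an adjusted p-value under 0.05 (Thbs4). DESeq2 also called 0. Its values for Thbs4 (-0.92, adjusted p = 5.21e-08) and Thbs1 (-0.97, adjusted p = 0.00019) missed only the fold threshold. Over all genes, 1.68% were called higher and 0.494% lower at D7 than at D4. The median log2 fold change was -0.36 over the members and 0.01 over all genes. Thbs4 was lower at D7 by a log2 fold change of -0.88 (95% interval -1.22 to -0.54, adjusted p = 0.0313), which missed the fold threshold. Thbs1 had -0.93 (95% interval -1.44 to -0.42, adjusted p = 0.0647), and without D7 b it was called (-1.21, adjusted p = 0.0431). For Fn1 the value was -0.44 (95% interval -0.75 to -0.13, adjusted p = 0.104), for Tnc -0.44 (-0.90 to 0.02, adjusted p = 0.217), for Thbs2 -0.27 (-0.62 to 0.07, adjusted p = 0.295) and for Thbs3 -0.69 (-1.32 to -0.06, adjusted p = 0.172). In CPM, both D7 libraries lay below both D4 libraries for these 6 genes and above them for Sparc and Sparcl1. They overlapped for Postn and Smoc2. Groups of 2 libraries often separate so without a difference, and the share of all genes that did was not counted. The interval for Sparc (-0.16 to 0.39, adjusted p = 0.572) excluded a 2-fold difference between the days, and that for Postn (-0.94 to 1.04, adjusted p = 0.957) did not.

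Levels of different genes were compared by FPKM, which divides by length. The deposited FPKM carry no TMM factor, so that genes are ordered here only within a group. In control nerve Sparc came first with a mean of 2521 FPKM, far above Fn1 (252.8) and Thbs4 (209.3). Sparcl1 came next with 175.3 and overlapped Thbs4. Postn (50.2) and Thbs2 (43.5) overlapped each other, Thbs1 followed at 27.0, and Smoc2 (18.5), Tnc (18.3) and Thbs3 (14.2) overlapped their neighbours in the order.

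At D4 the order was Sparc (1648), Thbs4 (825.7) and Fn1 (783.5), the last pair overlapping, then Thbs2 (304.2), Tnc (124.0) and Thbs1 (119.9), again an overlapping pair. Postn (83.5), Smoc2 (41.5), Sparcl1 (31.4) and Thbs3 (15.2) closed it without overlap. At D7 it was Sparc (1796), Fn1 (579.4), Thbs4 (450.6) and Thbs2 (252.8), each apart from the next. Tnc (91.8), Postn (86.8), Thbs1 (63.2), Smoc2 (46.5) and Sparcl1 (42.3) formed a run in which each overlapped its neighbour, and Thbs3 (9.49) was again lowest. Sparcl1 thus stood 4th of the 10 in control and 9th at D4 and D7, while Tnc stood 9th in control and 5th at both days.

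**Figure D3:**
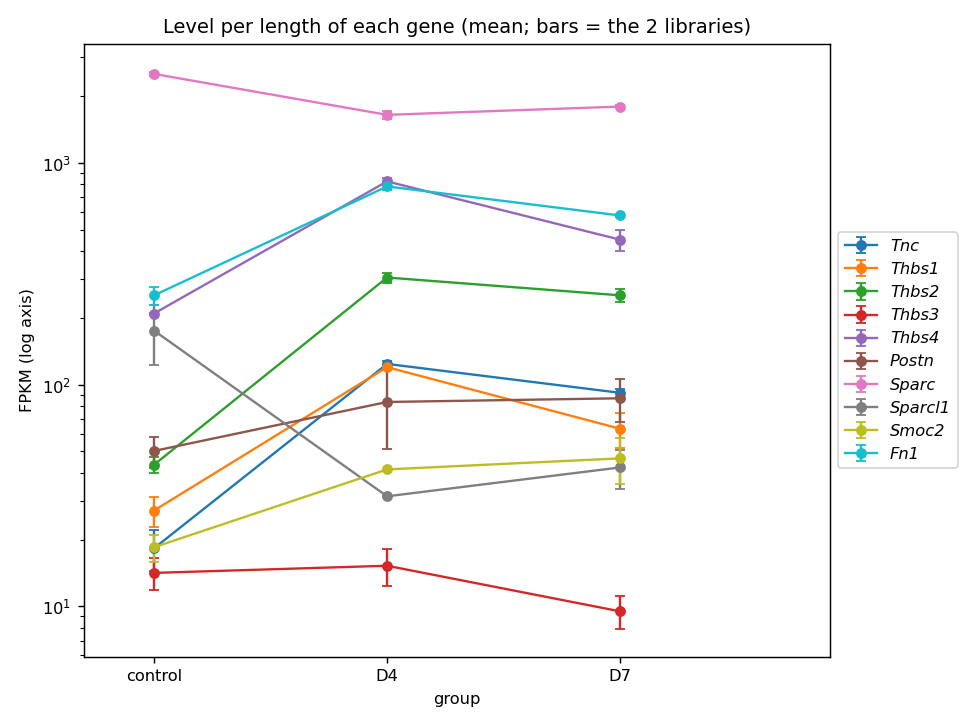
Mean FPKM of each gene in control, D4 and D7 on a log axis, with bars spanning the 2 libraries of a group. Sparc is highest in each group, and Sparcl1 crosses from 4th place in control to 9th after injury. FPKM carry no TMM factor, so the plot shows the order of genes within a group.

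Ratios within a library do not depend on the scaling and are given as descriptions. Fn1 had 0.0891 and 0.112 times the FPKM of Sparc in control, 0.516 and 0.439 at D4 and 0.311 and 0.335 at D7. Sparc exceeded Sparcl1 21.1 and 10.8 times in control and between 34.6 and 55.2 times after injury. Tnc had 0.343 and 0.379 times the FPKM of Postn in control and between 0.904 and 2.35 times after injury. These 3 ratios were higher in each injured library than in either control library.

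Within the thrombospondins, the FPKM ratio of Thbs4 to Thbs2 was 4.44 and 5.26 in control, 2.77 and 2.67 at D4 and 1.86 and 1.69 at D7, 3 ranges that did not overlap. The ratio of Thbs1 to Thbs2 was 0.484 and 0.784 in control, 0.403 and 0.386 at D4 and 0.192 and 0.316 at D7. The ratio of Fn1 to Tnc was 15.8 and 12.5 in control and between 6.19 and 6.44 in the 4 injured libraries. Together the 10 genes took 0.936% and 0.998% of the fragments of the control libraries. They took 1.78% and 1.76% at D4 and 1.41% and 1.39% at D7, shares that carry no TMM factor. Fn1, Sparc and Thbs4 made up 84.7% to 88.0% of these fragments in control and 77.0% to 78.2% after injury.

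The setting of these values was read from marker lists of the cell types a nerve sample can hold, summed in CPM. Of 4 myelin genes of Schwann cells (Mbp, Pmp22, Mag and Prx), all 4 fell at D4, with log2 fold changes from -3.81 for Mbp to -7.42 for Prx. At D7, 3 of the 4 were lower, from -2.54 for Prx to -3.28 for Pmp22, and Mag was not called (-0.80, adjusted p = 0.0748). Of the repair Schwann cell list (Ngfr, Sox2, Gdnf, Shh and Olig1), 4 of 5 were higher at each day, with sums of 50.1 and 51.0 in control, 2060 and 2210 at D4 and 1190 and 1250 at D7. Macrophage markers were higher in 5 of 5 genes at D4 and 4 of 5 at D7, with sums of 193 and 212 in control, 662 and 673 at D4 and 425 and 534 at D7. The fibroblast list (Pdgfra, Dcn, Lum, Dpt and Pi16) had 0 of 5 genes called at either day by edgeR or DESeq2, and at an unadjusted p-value under 0.05 Pdgfra was higher and Dcn lower at each day, with sums of 3040 to 3170 in control, 2560 to 2650 at D4 and 2270 to 2560 at D7. Of the vascular lists, endothelial markers (3 of 4 matched) had 1 lower at D4 and 3 at D7, with sums of 678 and 1260 in control and no more than 423 after injury, and pericyte and smooth muscle markers had 1 of 4 lower at D4 and 2 at D7, with sums of 895 and 2720 in control and 541 to 794 after injury. Perineurial markers had 2 of 4 lower at D4 and 3 at D7, from 2270 and 2810 in control to between 948 and 1530. Adipocyte markers (1210 and 1360 CPM in control, 52.0 to 601 after injury) and skeletal muscle markers (0.235 to 38.8 CPM over the 6 libraries) had 0 called by edgeR or DESeq2 and 0 at an unadjusted p-value under 0.05. Of the tendon markers (26.1 to 61.8 CPM), edgeR called Tnmd lower at D4, on 16 and 9 counts in control and 1 and 4 at D4. Scx and Mkx were too low to be tested. Of the platelet markers (5.46 to 14.6 CPM), Pf4 was higher at each day and Itga2b was lower at D4. Ppbp and Gp9 were too low to be tested. No marker of these lists was at 0 in all 6 libraries, and the part of any cell type in the members' values was not tested.

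The members belong to a wider family of matrix glycoproteins, and they act through receptors. Of 27 further glycoproteins, 26 were tested (all but Spock3). At D4, 3 were higher and 5 lower, with a median log2 fold change of -0.18, and at D7, 2 were higher and 9 lower, with a median of -0.95. Of 17 receptors, 2 were higher and 0 lower by edgeR at each day, with medians of 0.11 and -0.04. At an unadjusted p-value under 0.05 by edgeR, 4 receptors were higher and 4 lower at each day. DESeq2 called 2 higher at each day, with 0 lower at D4 and 1 lower at D7. Over both lists, 5 genes were higher and 5 lower at D4, and 4 higher and 9 lower at D7, to be read against the shares of all genes given above. Without the TMM factors the split was 7 higher and 4 lower at D4 and 6 higher and 7 lower at D7. The 5 higher at D4 became 3 without control a, D4 a or D4 b, and the 9 lower at D7 became 14 without D7 b.

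**Figure D4:**
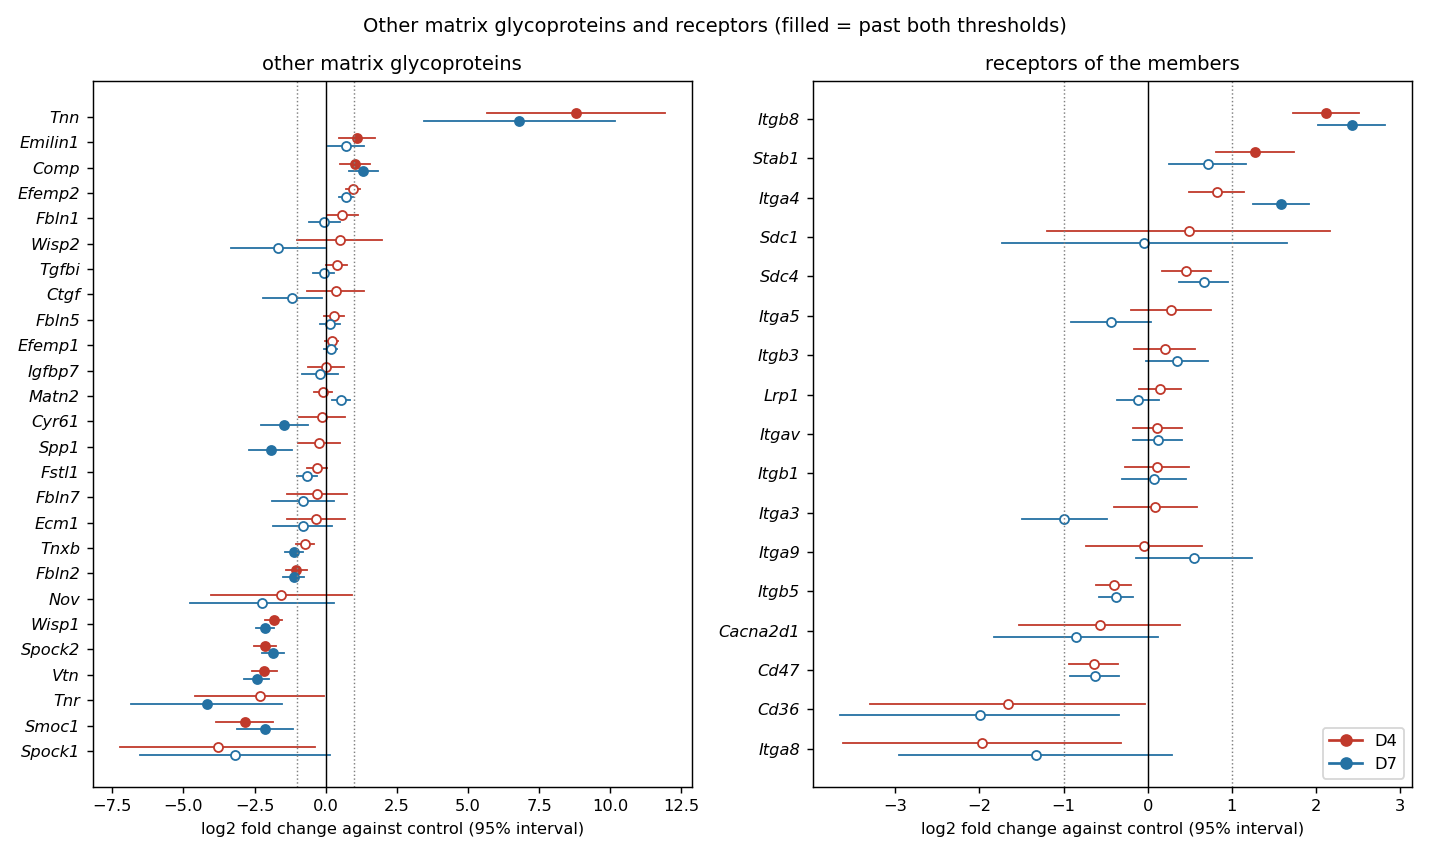
Log2 fold changes against control with 95% intervals for 26 other matrix glycoproteins and 17 receptors, in red for D4 and blue for D7. Filled points passed both thresholds. Tnn lies far to the right on 2 counts in the control libraries, Smoc1, Vtn, Spock2 and Wisp1 lie to the left at both days, and among the receptors Itgb8 stands apart with 2.13 and 2.43.

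The glycoproteins that were higher at D4 were Tnn, Comp and Emilin1. Tnn, the tenascin W gene, had 2 and 0 counts in control, 1092 and 264 at D4 and 110 and 172 at D7, so its summed counts, scaled by library size, were 475 times those of control at D4 (exact counting interval 131 to 3920) and 122 times at D7 (33.5 to 1010), intervals that cover counting error only. Comp, the pentameric thrombospondin 5 of cartilage and tendon, was low throughout, with 5.36 and 6.57 CPM in control, 11.9 and 12.4 at D4 and 17.3 and 12.5 at D7 (log2 fold changes 1.02, SE 0.21, adjusted p = 0.0107, and 1.32, SE 0.21, adjusted p = 0.00547). Emilin1, an elastic fibre glycoprotein, had 1.10 at D4 (SE 0.26, adjusted p = 0.0174) and 0.71 at D7 (adjusted p = 0.0769, not called).

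Among those that were lower, Smoc1, the closest relative of Smoc2, went from 28.2 and 40.8 CPM to 4.93 and 4.62 at D4 and 4.6 and 10.98 at D7 (log2 fold change -2.85, SE 0.42, adjusted p = 0.00290 at D4, and -2.15, SE 0.40, adjusted p = 0.00933 at D7). The sign of its fitted values was thus opposite to that of Smoc2. Vtn, vitronectin, an adhesive protein of plasma and matrix, had log2 values of -2.16 at D4 (SE 0.18, adjusted p = 0.000412) and -2.43 at D7 (SE 0.18, adjusted p = 0.000524), and was called at each day. Spock2, a SPARC-related proteoglycan, fell by 2.13 (SE 0.16, adjusted p = 0.000303) and by 1.87 (SE 0.16, adjusted p = 0.000682). Wisp1, of the CCN family, had -1.83 and -2.13, and Fbln2, fibulin 2, had -1.03 and -1.13, and both were called at each day. Cyr61, also of the CCN family, had -0.13 at D4 (adjusted p = 0.767, not called) and fell by 1.46 at D7 (SE 0.34, adjusted p = 0.0191). Tnr, a tenascin of the central nervous system, had 235 and 51 counts in control, 52 and 25 at D4 and 1 and 16 at D7, and was called lower at D7 (log2 fold change -4.19, SE 1.09, adjusted p = 0.0279).

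Spp1, osteopontin, an integrin ligand of macrophages and Schwann cells, had 958.0 and 736.1 CPM in control, 914.6 and 539.1 at D4 and 264.1 and 179.0 at D7. It was not called at D4 (log2 fold change -0.22, adjusted p = 0.585), fell at D7 by 1.93 on the log2 scale (SE 0.31, adjusted p = 0.00563) and was called lower at D7 than at D4 (-1.71, SE 0.31, adjusted p = 0.0419). Tnxb, tenascin X, had -0.74 at D4 (adjusted p = 0.00582, not called) and fell by 1.10 at D7 (SE 0.13, adjusted p = 0.00181). Tgfbi, a fasciclin-domain relative of periostin, had 0.38 and -0.06 and was not called.

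Of the receptors, Itgb8, the integrin subunit that binds latent TGF-beta with the alpha V chain, had 301.4 and 258.0 CPM in control, 1130 and 1312 at D4 and 1666 and 1345 at D7. All 4 injured libraries were above control, and the log2 fold changes were 2.13 at D4 (SE 0.16, adjusted p = 0.000311) and 2.43 at D7 (SE 0.16, adjusted p = 0.000399). Stab1, a macrophage scavenger receptor that takes up Sparc, rose at D4 (1.28, SE 0.19, adjusted p = 0.00307) and had 0.71 at D7 (adjusted p = 0.0285, not called). Itga4, which pairs in the receptor for a splice form of fibronectin, had 0.82 at D4 (adjusted p = 0.00441, not called) and rose at D7 (1.59, SE 0.14, adjusted p = 0.000697). Itga3 was called lower at D7 than at D4 (-1.08, SE 0.21, adjusted p = 0.0452), the only receptor of the 17 called between the days.

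The fibronectin receptor chains Itga5, Itgav and Itgb1 were not called at either day. Itga5 had log2 fold changes of 0.28 at D4 (95% interval -0.20 to 0.75) and -0.44 at D7 (-0.91 to 0.04), Itgav 0.11 (-0.18 to 0.40) and 0.12 (-0.17 to 0.41), and Itgb1 0.11 (-0.26 to 0.49) and 0.08 (-0.30 to 0.45). These 6 intervals lie within a 2-fold difference. The thrombospondin receptor Cd47 had -0.64 (adjusted p = 0.00719) and -0.63 (adjusted p = 0.00953), under the fold threshold. Cd36, the other thrombospondin receptor and also a fatty acid transporter of adipocytes and endothelium, had -1.66 (adjusted p = 0.0901) and -2.00 (adjusted p = 0.0629) with D7 libraries at 24.5 and 121.0 CPM, the lower in the library with the lower adipocyte sum, whose part in it was not tested. Sdc4, a heparan sulfate co-receptor for fibronectin, had 0.46 (adjusted p = 0.0235) and 0.67 (adjusted p = 0.00789), also under the fold threshold.

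For 9 members the tested gene with the nearest profile over the 6 libraries was found by the root mean square difference of log2 CPM, each gene taken relative to its control mean. The nearest to Sparc was Vps13d at 0.0293 and to Fn1 Il17ra at 0.0326, the closest matches. Thbs2 was nearest to LOC102549726 (0.0698), Thbs4 to Cd5l (0.0782), Tnc to Steap2 (0.0860), Smoc2 to AABR07065531.5 (0.112) and Thbs3 to Cd34 (0.119). Postn (Vnn1, 0.199) and Sparcl1 (Smoc1, 0.216) had no gene as near. With 6 libraries and 15195 candidates, such likeness is a description and no more.

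The same libraries were also counted for lncRNA transcripts, and 5 of the 10 member spans (Thbs2, Thbs4, Postn, Smoc2 and Fn1) held 1 annotated lncRNA each, lying wholly inside the gene. Whether it lies in an exon or an intron was not analysed here, and since it is not stated whether the counting used strand, fragments of the lncRNA and of its host gene cannot be told apart. They were fitted within the table of 14077 tested lncRNAs, in which 10.1% were called at D4 and 5.79% at D7 in either direction. Of the 5, 1 was called at D4 and 2 at D7.

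NONRATT002193.2, of 917 nt at chr1:56661958-56667785 inside Thbs2, had 19 and 17 counts in control, 73 and 81 at D4 and 59 and 46 at D7. Its groups did not overlap, in the order of its host gene, and it rose at D4 (log2 fold change 1.93, SE 0.26, adjusted p = 0.0132) and at D7 (1.44, SE 0.26, adjusted p = 0.0395). NONRATT015286.2, of 810 nt at chr2:143674623-143687635 inside Postn, had 112 and 75 counts in control, 165 and 190 at D4 and 583 and 388 at D7, all groups apart. It had 0.77 at D4 (adjusted p = 0.138) and rose at D7 (2.28, SE 0.28, adjusted p = 0.0147), with 1.52 for D7 against D4 (adjusted p = 0.141), whereas the groups of Postn itself overlapped. The call at D4 was lost without control b, D4 a or D4 b, which left 0 of 5. At D7, 0 of 5 were called without control b, D4 b or D7 a, and 1 without D4 a or D7 b.

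The other 3 were not called. NONRATT015969.2 (476 nt, chr2:22368041-22385665, inside Thbs4) had 376 and 6 counts in control, 1618 and 2137 at D4 and 1165 and 629 at D7, and its control libraries were far apart although those of Thbs4 differed by 1.02 times (adjusted p = 0.228 at D4 and 0.399 at D7). NONRATT030136.2 (1073 nt, chr9:78911341-78912413, inside Fn1) had 227 and 691, 1819 and 1717, and 942 and 466 counts in the same order, with D7 overlapping control (adjusted p = 0.132 and 0.668). NONRATT000232.2 (874 nt, chr1:56367502-56368911, inside Smoc2) was near the limit of detection, with 3 and 1 counts in control, 17 and 15 at D4 and 18 and 6 at D7 (adjusted p = 0.0848 and 0.137).

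**Figure D5:**
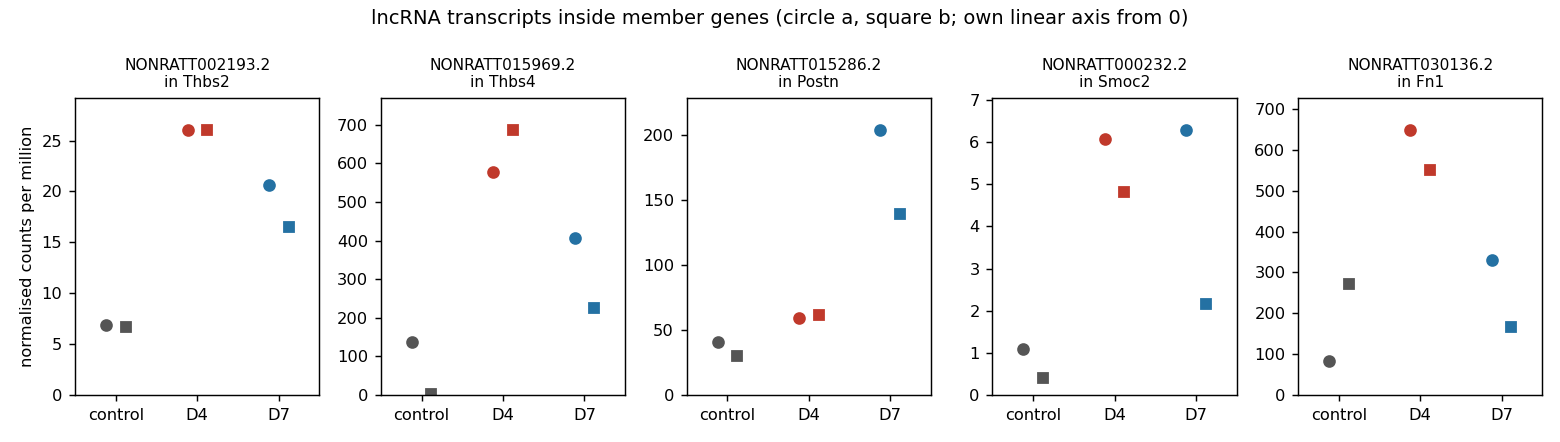
Normalised counts (CPM), within the lncRNA table, of the 5 lncRNA transcripts inside member genes, circles for library a and squares for library b, each on its own linear axis from 0. The transcript inside Postn is highest at D7 (203.9 and 139.2), and the transcript inside Thbs4 has 136.8 and 2.37 in the 2 control libraries.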

How the data were processed

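Sciatic nerve RNA of 6 rats was analyzed in 3 groups of 2. After ribosomal reads had been taken out, the authors aligned reads to the rat genome (Rnor_6.0 per the labels) with HISAT2 2.0.4 and counted fragments with StringTie 1.3.0. The deposited counts per gene and per lncRNA transcript are whole numbers without normalization. The FPKM were computed and deposited by the authors, and for genes they follow the library totals without TMM factors. Whether counting used strand was not given in the sources used here.

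Here, genes were filtered with filterByExpr, scaled with TMM and fitted with edgeR 4.0.16 in R 4.3.3 by group, lncRNAs apart (22721 listed, 14077 tested). SE is the absolute log2 fold change over the root of F. The members and gene lists were chosen with earlier results of these data known. Named were the 10 members, the listed related genes with the 3 highest and 3 lowest called changes per comparison, 11 fixed related genes, the nearest gene of 9 members and lncRNAs inside members. Emilin1, Wisp1, Fbln2, Cyr61, Itga3 and the lncRNAs that were not called were named after their values were seen. Alternatives were DESeq2 1.42.0, no TMM factors, other filters and thresholds, fits of 2 groups, the library letter as a block, and each library left out. Summed values of the myelinating Schwann cell markers and the nearest gene of Thbs1 are not reported here.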

Additional observations from a re-analysis of the deposited data

How the results depend on the processing

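Calls at D4 depended little on the settings. Of the 10 members, 6 were called at D4 and between 6 and 8 under every alternative. At D7, 4 were called, 7 without TMM factors and 9 with no fold threshold. Leaving out each library in turn gave 3 to 5. For D7 against D4, 0 were called, 1 with no fold threshold (Thbs4), and 0 to 1 with a library left out. The lncRNA count at D4 was 1, 2 with DESeq2, and 0 to 1 with a library left out. At D7 it was 2, and 0 to 2 with a library left out. Libraries that share a letter are different rats, and their deviations from the group means correlated by 0.01 between control and D4, 0.19 between control and D7 and -0.13 between D4 and D7. With the letter as a replicate block, 6 members were called at D4, 4 at D7 and 0 between the days, and 1 lncRNA in place of 2 at D7. The related genes called were 11 at D4 (10 without the block) and 12 at D7 (13 without it). With a library left out they numbered 7 to 14 at D4 and 11 to 18 at D7.

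The sign turned for Thbs3 at D4 (0.11 without TMM factors, -0.48 to 0.074 with a library left out), Postn at D4 (-0.26 to 0.92), Postn at D7 against D4 (-0.43 to 0.76) and Smoc2 at D7 against D4 (-0.25 to 0.47). None of these was called, and the cause was not tested. Of the single-gene values, 388 kept their direction and call, 19 became called, 6 lost the call (all Smoc2 at D7) and 7 turned. The 19 include values that became called only because the fold threshold was dropped, such as those of Sparc. With 2 rats a group, a 2-fold difference in a variable gene such as Postn was not resolved.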
